A study of Arabidopsis thaliana with 4 samples.

Results

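The genes described here encode the HAESA receptors, their SERK co-receptors and a pair of kinases that modulate them. They were picked by locus identifier as 9 loci among the 33602 listed in the count files, and all 9 had enough counts to be tested. HAE (AT4G28490), HSL2 (AT5G65710) and HSL1 (AT1G28440) are the receptors. SERK1 (AT1G71830), SERK2 (AT1G34210), BAK1 (SERK3, AT4G33430) and SERK4 (AT2G13790) are the co-receptors. SOBIR1 (EVERSHED, AT2G31880) and CST (CAST AWAY, AT4G35600) are the modulators.

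Floral organs of Arabidopsis are shed when the secreted peptide IDA is bound by HAE or HSL2, receptor kinases with an extracellular domain of leucine-rich repeats. The bound receptor recruits a SERK, a shorter receptor kinase that serves many ligand-binding receptors in growth and immunity, and the pair signals through a MAP kinase cascade to genes of cell wall breakdown. SOBIR1 and CST are known from mutants that restore shedding to plants lacking the traffic regulator NEVERSHED, and both are described as restraining abscission.

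The 4 libraries were made from protoplasts sorted for a nuclear GFP–GUS reporter under QRT2, a promoter of abscission zone cells. Residuum cells (REC, n = 2) come from the receptacle side of the zone and secession cells (SEC, n = 2) from the organs that separate, and the comparison asks how the 2 faces of the zone differ. All libraries are of ebp1 mutants in the Col-0 background, grown at 22°C under 16 h of light and 8 h of dark, and no wild-type library is among them, so what the mutation changes cannot be read here. The mutation stands in the sample titles and the series description and not in the genotype labels, which give the reporter promoter as QRT2 in the first library and with a number higher by 1 in each next one. The label of the sort rests on 1 promoter, and neither the plant age nor the number of plants per library is given. The labels name no separate plants or sorts behind the replicates, so the spread on which each p-value rests may be a technical one.

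The libraries held 12191718 and 14338470 counts in genes for REC, and 13737549 and 16102115 for SEC. QRT2 was read in each of them, at 492 and 568 CPM (counts per 1000000 counts of the library, scaled by TMM) in REC and 459 and 694 CPM in SEC. The list of abscission zone markers also held HAE, IDA and ADPG2. IDA, at 0.471 and 0.867 CPM in REC against 32.5 and 13.9 CPM in SEC, was higher in SEC (edgeR adjusted p = 0.0341). So was ADPG2, at 22.7 and 21.9 CPM in REC against 147 and 171 CPM in SEC (edgeR adjusted p = 0.0267). HAE did not pass the test. The lists of other cell types that a sort could hold had 0 counts in every library for the nectary markers SWEET9 and CRC, the guard cell marker FAMA, the phloem marker APL and the xylem marker XCP2, and 3 or fewer for the pollen marker VGD1 and the tapetum marker A9. The nectary marker CWINV4 had 17 counts in SEC replicate 1, or 1.31 CPM, and 0 in the other libraries. A count of 0 in all 4 libraries allows up to 0.0532 CPM, counting error only. Summed xylem markers stood at 3.93 to 6.27 CPM in REC and 49.1 to 83.4 CPM in SEC. Nearly all of the SEC sum was MC9. It had 4.55 and 1.87 CPM in REC against 48.6 and 80.8 CPM in SEC (20.3-fold, edgeR adjusted p = 0.0341). The xylem markers XCP1 and IRX3 stood at 1.6 CPM or less in every library. Summed phloem markers stood at 9.26 to 9.33 CPM in REC and 0.641 to 3.32 CPM in SEC, and guard cell markers at 1.02 to 3.2 CPM in REC and 0.513 to 1.77 CPM in SEC. The phloem sum was SUC2 alone but for 2 counts of SEOR1 in SEC replicate 2. In the guard cell list KAT1 had 10 and 40 counts in REC and 0 in both SEC libraries. MYB60 had 3 and 8 counts in REC and 23 and 8 in SEC. Summed mesophyll markers stood at 2634 to 3516 CPM in REC and 2200 to 2925 CPM in SEC, and epidermis markers at 116 to 123 CPM in REC and 88 to 135 CPM in SEC. Within these sums 2 of 4 mesophyll genes were far higher in REC by edgeR, RBCS2B at 206 and 126 CPM in REC against 3.7 and 5.45 CPM in SEC (36-fold, adjusted p = 0.0267) and CA1 at 166 and 79 CPM in REC against 9.56 and 11.5 CPM in SEC (11.6-fold, adjusted p = 0.0341). Of 4 epidermis genes, PDF2 was higher in SEC, at 9.88 and 7.87 CPM in REC against 30.2 and 31.5 CPM in SEC (3.47-fold, edgeR adjusted p = 0.0431). The rest of that list went the other way and did not pass. Their log2 fold changes, REC minus SEC, were 0.29 for ATML1, whose groups overlapped, 1.58 for PDF1 and 0.44 for FDH. PDF1 rested on 22 and 42 counts in REC and 0 and 23 in SEC. RBCS2B belongs to a family of close copies, so its counts are uncertain. The part of such cells in the results below was not tested.

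The co-receptor genes are alike enough that their sequences bear on how reads are told apart. Among the 4 SERK genes, the 60 coding bases shown have the fewest differences from SERK1, summed over SERK2, BAK1 and SERK4. Only windows without gaps that start at a codon of SERK1 were searched. The bases are from the RefSeq annotation of TAIR10.1, on the coding strand, with capitals where they differ from SERK1. They start at base 1096 of the SERK1 coding sequence, 1105 of SERK2, 1198 of BAK1 and 1072 of SERK4, counted from the start codon.
SERK1: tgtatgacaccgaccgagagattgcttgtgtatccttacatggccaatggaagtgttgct
SERK2: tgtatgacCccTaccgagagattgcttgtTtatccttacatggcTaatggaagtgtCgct
BAK1: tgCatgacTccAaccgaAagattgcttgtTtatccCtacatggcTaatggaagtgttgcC
SERK4: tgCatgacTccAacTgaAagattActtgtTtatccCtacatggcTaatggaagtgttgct
Even here SERK2 differs from SERK1 at 5 bases, BAK1 at 8 and SERK4 at 9. Over whole coding sequences SERK1 and SERK2 were 79.6% identical and BAK1 and SERK4 82%, the closest pairs among the 4, and their longest exact runs in common were 41 and 39 bases.

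The exception is a gene outside the 9. SERK4 lies on chromosome 2, as does its near copy SERK5 (AT2G13800), and they share an unbroken run of 473 bases of coding sequence, 18.9% of the SERK4 transcript. The first 60 bases of that run show the stretch in which the genes cannot be separated.
SERK4 and SERK5: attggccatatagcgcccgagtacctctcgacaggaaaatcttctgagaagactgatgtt
Of all 100-base windows of the SERK4 transcript, 19.4% occur in SERK5 too. Reads that align more than once are not in the gene counts, so the SERK4 level is a low estimate and the division between SERK4 and SERK5 is uncertain.

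The receptors are further apart than the SERK genes. HAE and HSL1 were 65.4% identical in coding sequence, HSL2 and HSL1 60.4%, and HAE and HSL2 59.6%. The longest exact run between any of them, shown to mark how short it is, was the 20 bases common to HAE, on chromosome 4, and HSL1, on chromosome 1.
HAE and HSL1: tatgagtacatgcctaatgg
No 50-base window of HAE, HSL2, HSL1 or CST occurs in the transcript of another gene.

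None of the 9 genes passed edgeR's quasi-likelihood test at an adjusted p of 0.05, against 2.67% of the 18384 genes tested (91 higher in REC and 400 higher in SEC). At an unadjusted p under 0.05 there were 3, BAK1, SOBIR1 and CST, against 23.6% of all genes. There were 0 calls by limma voom and 2 by DESeq2, SOBIR1 and CST, both higher in SEC, where 11.3% of all genes were called (714 higher in REC and 1501 higher in SEC). Both REC libraries lay above both SEC libraries for HAE, HSL1 and SERK2, and both SEC libraries above both REC libraries for BAK1, SOBIR1 and CST. That is 6 of 9 genes with no overlap, against 58% of all genes tested (29.8% with REC above and 28.2% with SEC above), which is near the count for the 9. The median log2 fold change of the 9 was 0.33, against 0.02 over all genes. That background is not matched for transcript length. Genes of 10 CPM or more and within 10% of the length of each of the 9 had medians from 0.02 (for CST) to 0.22 (for HSL2). In bulk samples, fewer cells that use a gene and less of its RNA per cell cannot be told apart.

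**Figure D1:**
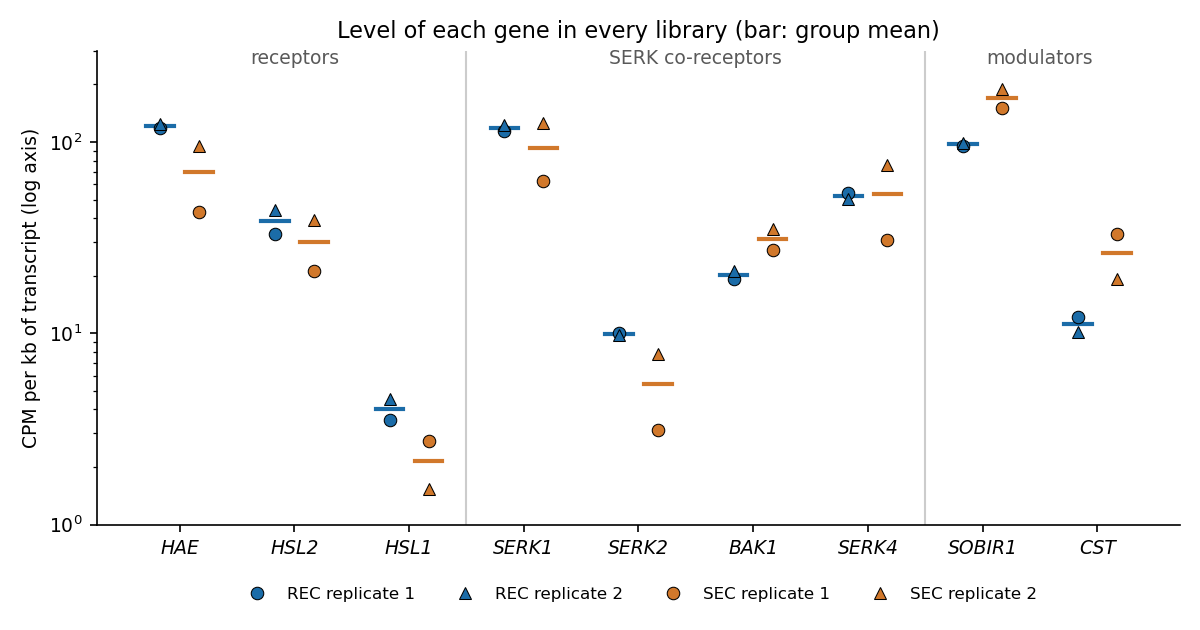
Level of each gene in CPM per kilobase of transcript, on a log axis, with REC libraries left of SEC libraries, circles for replicate 1, triangles for replicate 2 and a bar at the mean of each group. The REC pairs lie close together for most genes and the SEC pairs are wide; SOBIR1, BAK1 and CST are the genes whose SEC points both lie above the REC points.

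HAE, a receptor of IDA, had 439 and 459 CPM in REC, against 160 and 355 CPM in SEC. Both REC libraries were above both SEC libraries, and SEC replicate 1 was the lowest. The mean was 449 ± 14 CPM in REC and 257 ± 138 CPM in SEC (SD, n = 2 each), a 1.75-fold difference that did not pass the test (log2 fold change REC minus SEC 0.80, SE 0.38, edgeR adjusted p = 0.283). The size turned on the SEC library used: it was 0.34 without SEC replicate 1 (edgeR adjusted p = 0.00638) and 1.502 without SEC replicate 2 (adjusted p = 1.85e-09). In those fits the REC pair alone sets the spread, and 38.7% and 55.5% of all genes were called.

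HSL2, which acts redundantly with HAE, had 106 and 143 CPM in REC, against 68.3 and 126 CPM in SEC. The groups overlapped, because SEC replicate 2 lay between the REC libraries. For HSL2 the log2 fold change was 0.35 (SE 0.35, edgeR adjusted p = 0.597), and it was −0.02 without SEC replicate 1 and 0.88, past the threshold, without SEC replicate 2.

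HSL1, better known as a receptor for CLE peptides in the stomatal lineage, was the lowest of the 9 genes. It had 156 and 235 counts in REC, or 12.2 and 15.7 CPM, against 124 and 83 counts in SEC, or 9.56 and 5.32 CPM. Both REC libraries were above both SEC libraries, and here SEC replicate 1 was the higher of its pair, the reverse of HAE and HSL2. HSL1 had a log2 fold change of 0.91 (SE 0.40, edgeR adjusted p = 0.254), 1.39 and past the threshold without SEC replicate 1, and 0.56 without SEC replicate 2 (adjusted p = 0.0751).

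SERK1, the most abundant of the co-receptor genes, had 292 and 312 CPM in REC, against 160 and 322 CPM in SEC. SEC replicate 2 exceeded both REC libraries and SEC replicate 1 was far below them, so the groups overlapped. SERK1 had a log2 fold change of 0.33 (SE 0.35, edgeR adjusted p = 0.623), −0.09 without SEC replicate 1 and 0.93, past the threshold, without SEC replicate 2. SERK2, its closest relative among the 9, had 25.6 and 25.1 CPM in REC, against 7.94 and 19.9 CPM in SEC. Both REC libraries were above both SEC libraries. The log2 fold change of SERK2 was 0.86 (SE 0.47, edgeR adjusted p = 0.336), 0.35 without SEC replicate 1 and 1.68, past the threshold, without SEC replicate 2.

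BAK1, the co-receptor best known from brassinosteroid and immune signalling, went the other way from SERK2. It had 54.4 and 59.6 CPM in REC, against 77.4 and 99 CPM in SEC, and both SEC libraries were above both REC libraries. The mean was 57 ± 3.65 CPM in REC and 88.2 ± 15.3 CPM in SEC (SD, n = 2 each), 1.55-fold higher in SEC, which did not pass the test (log2 fold change −0.63, SE 0.23, edgeR adjusted p = 0.181). Leaving out SEC replicate 1 gave −0.80 and leaving out SEC replicate 2 gave −0.43, past the threshold both times.

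SERK4, which overlaps with BAK1 in immunity and in the control of cell death, had 135 and 126 CPM in REC, against 77.4 and 189 CPM in SEC. The REC libraries lay between the SEC libraries, so no direction can be given. For SERK4 the log2 fold change was −0.03 (SE 0.43, edgeR adjusted p = 0.977); leaving out SEC replicate 1 gave −0.53 and leaving out SEC replicate 2 gave 0.77, past the threshold in opposite directions. SERK5, named for the sequence it shares with SERK4, spread in the same way, at 25.3 and 18.2 CPM in REC and 15.3 and 27.1 CPM in SEC.

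SOBIR1, a receptor kinase that also serves as the partner of receptor-like proteins in immunity, came nearest to the threshold. It had 199 and 205 CPM in REC, against 312 and 396 CPM in SEC. Each SEC library was above both REC libraries by more than the gap within either pair. The mean was 202 ± 4.1 CPM in REC and 354 ± 59.8 CPM in SEC (SD, n = 2 each), 1.75-fold higher in SEC (log2 fold change −0.81, SE 0.20, edgeR adjusted p = 0.0887, and 0.0283 by DESeq2). The value kept its sign under every alternative tried, from −0.97 without SEC replicate 1 to −0.61 without SEC replicate 2.

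The end of SOBIR1 overlaps a gene on the other strand, RAP (AT2G31890), over 478 bases, and the library kit does not mark strand. RAP had 68.7 and 75.5 CPM in REC, against 107 and 125 CPM in SEC (log2 fold change −0.68, SE 0.21, edgeR adjusted p = 0.129). Both genes were thus higher in both SEC libraries, and reads of the overlap cannot be assigned between them. SERK1, SERK2 and BAK1 overlap neighbours on the other strand by 158, 57 and 78 bases. The neighbour of SERK1 had 86 and 112 counts in REC and 57 and 186 in SEC, and that of BAK1 10 or fewer in every library. The neighbour of SERK2, AT1G34220, had 856 and 848 counts in REC and 923 and 1243 in SEC, more than the 326 and 377 of SERK2 itself in REC and its 103 and 310 in SEC.

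CST, a membrane-attached cytoplasmic kinase, had the largest fold change of the 9 genes. It had 273 and 272 counts in REC, or 21.4 and 18.1 CPM, against 760 and 535 counts in SEC, or 58.6 and 34.3 CPM. Both SEC libraries were above both REC libraries, with SEC replicate 1 the highest. The mean was 19.8 ± 2.32 CPM in REC and 46.5 ± 17.2 CPM in SEC (SD, n = 2 each), 2.35-fold higher in SEC (log2 fold change −1.23, SE 0.34, edgeR adjusted p = 0.108, and 0.0223 by DESeq2). CST stood at −0.80 when SEC replicate 1 was left out and at −1.56 when SEC replicate 2 was.

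**Figure D2:**
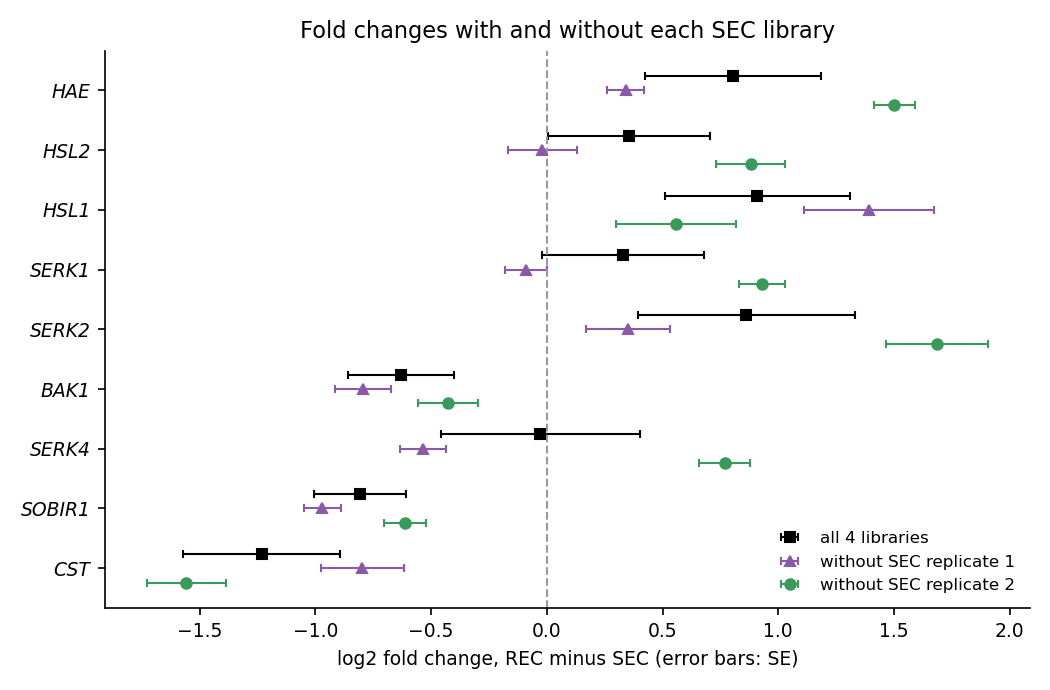
Log2 fold change of each gene, REC minus SEC, with its standard error, for all 4 libraries (squares), without SEC replicate 1 (triangles) and without SEC replicate 2 (circles). BAK1, SOBIR1 and CST stay left of 0 and HAE, HSL1 and SERK2 right of it in all 3 fits, while HSL2, SERK1 and SERK4 cross it; the short bars of the last 2 fits come from the spread of the REC pair alone.

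The SEC libraries differed within themselves more than the REC libraries did, and 7 of the 9 genes were lower in SEC replicate 1 than in SEC replicate 2. All 9 transcripts are longer than the median of the genes tested, 1747 nt, and run from 1774 nt for CST to 3710 nt for HAE. SEC replicate 1 was low in long transcripts: 74.3% of genes over 2000 nt were lower in it than in SEC replicate 2, against 48.3% of all genes. On the log2 scale the ratio of the first SEC library to the second was −1.15 for HAE, where the median of genes of 10 CPM or more and within 10% of its length was −0.999. HSL2 likewise stood at −0.89 beside a median of −0.80. SERK1, SERK2 and SERK4 were lower in SEC replicate 1 than most genes of their length, at −1.01, −1.32 and −1.29 beside medians of −0.41, −0.40 and −0.38. HSL1, at 0.85 beside a median of −0.91, and CST, at 0.77 beside 0.06, went the other way.

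**Figure D3:**
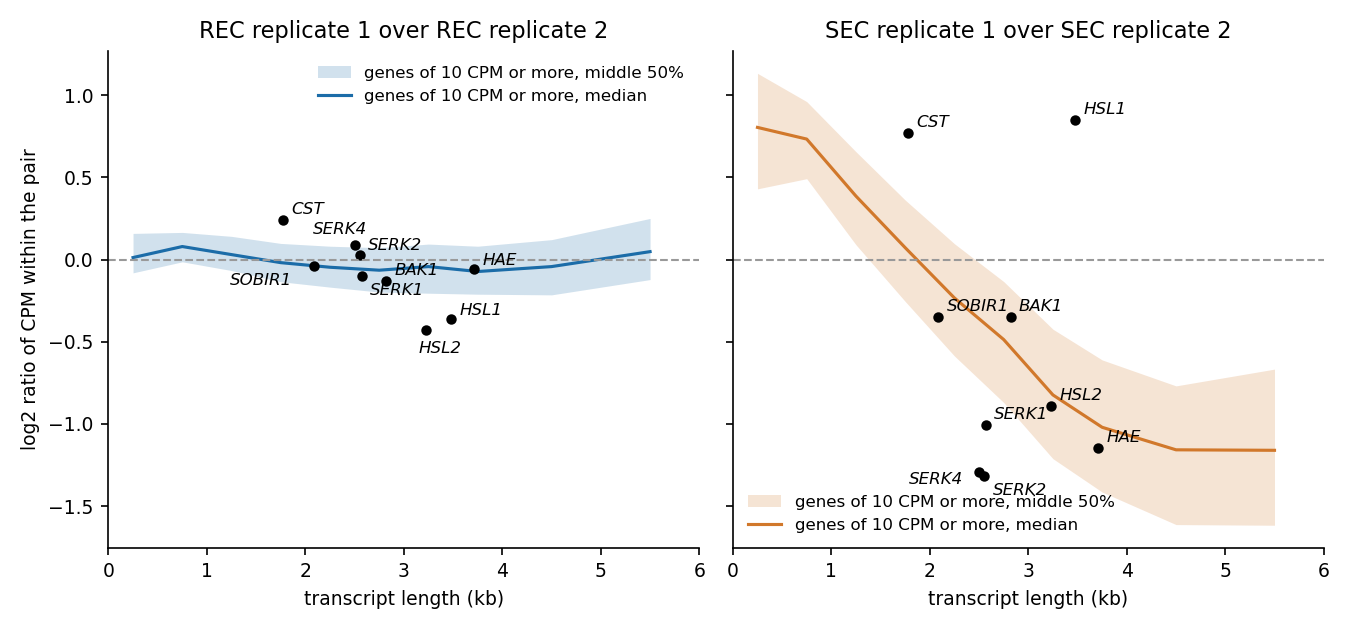
Log2 ratio of replicate 1 to replicate 2 against transcript length in kilobases for the REC pair (left) and the SEC pair (right), with the median and middle 50% of all genes of 10 CPM or more by length bin (those over 5000 nt are drawn at 5.5 kb) and the 9 genes as points. The median stays near 0 for REC and falls with length for SEC, where HAE and HSL2 lie near it, SERK1, SERK2 and SERK4 below it and HSL1 and CST above it.

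With the trend of each library on transcript length removed, 4 of the 9 genes passed edgeR's test, where 14.1% of all genes did (792 higher in REC and 1791 higher in SEC). HAE was higher in REC, with a log2 fold change of 0.49 (SE 0.12, adjusted p = 0.0475). BAK1, SOBIR1 and CST were higher in SEC, at −0.94 (adjusted p = 0.027), −0.97 (adjusted p = 0.01) and −1.31 (adjusted p = 0.0474). HSL2 came to 0.04, SERK1 to 0.14, HSL1 to 0.32, SERK2 to 0.695 (SE 0.30, adjusted p = 0.186) and SERK4 to −0.19, none of them past the threshold. Genes of 10 CPM or more within 10% of the length of HAE had a median log2 fold change of 0.21 before that step, beside 0.80 for HAE.

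Levels were compared between genes per kilobase of transcript. This scaling leaves the trend of SEC replicate 1 on transcript length in the levels, and its part in their order was not tested. The order by mean over the 4 libraries was SOBIR1 (133 CPM per kb), SERK1 (106), HAE (95.2), SERK4 (52.8), HSL2 (34.3), BAK1 (25.7), CST (18.7), SERK2 (7.69) and HSL1 (3.08). The ranges of neighbours overlapped all along that order except between CST, whose lowest library stood at 10.2 CPM per kb, and SERK2, whose highest stood at 10 CPM per kb. HAE was first of the 9 in both REC libraries, at 118 and 124 CPM per kb, and SOBIR1 first in both SEC libraries, at 150 and 190 CPM per kb. HAE was above 94.6% and 95.1% of all genes tested in REC by this measure and above 80.9% and 92.4% in SEC. HSL1 was above 28.9% and 33.3% of them in REC and above 26.5% and 16.1% in SEC.

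Shares within a library do not depend on its depth, but length scaling leaves the trend of SEC replicate 1 on transcript length in them. HAE made up 76.5% and 71.7% of the length-scaled counts of the receptors in REC, against 64.3% and 70.1% in SEC. HSL2 made up 21.2% and 25.6% in REC, against 31.6% and 28.7% in SEC. The groups did not overlap for either gene, but for HAE the gap between the nearest REC and SEC libraries was smaller than that within each pair. For HSL2 that gap was smaller than the one within the REC pair. HSL1 was a small share throughout, at 2.27% and 2.61% in REC and 4.11% and 1.12% in SEC.

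Among the co-receptors, SERK1 was the largest share in every library, at 57.7% and 59.9% in REC, against 50.3% and 51.4% in SEC. BAK1 made up 9.8% and 10.4% in REC, against 22.2% and 14.4% in SEC. SERK2 made up 5.09% and 4.85% in REC, against 2.51% and 3.19% in SEC. For all 3 of these the groups did not overlap, with SERK1 and SERK2 the higher share in REC and BAK1 in SEC. SERK4 overlapped, at 27.4% and 24.9% in REC and 25% and 31% in SEC. A two-sided exact permutation test of 2 libraries against 2 cannot go below p = 0.333, and the shares of HAE, HSL2, SERK1, SERK2 and BAK1 were at that value.

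**Figure D4:**
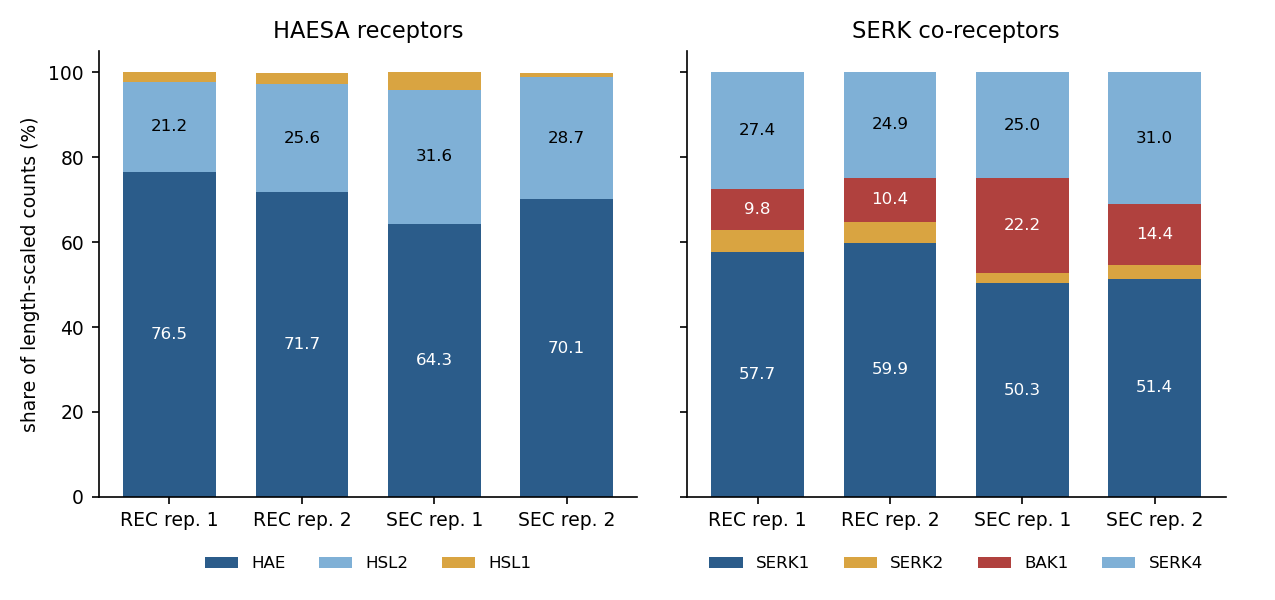
Share of each receptor gene (left) and each SERK gene (right) in the length-scaled counts of its subgroup, in percent, for each library, with REC left of SEC. SERK1 is the largest co-receptor share in all 4 libraries and that of BAK1 is 9.8% and 10.4% in REC and 22.2% and 14.4% in SEC.

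Ratios between genes of different subgroups were chosen after their values were seen and are given as a description. Length scaling leaves the trend of SEC replicate 1 on transcript length in these ratios too. HAE (3710 nt) is longer than SERK1 (2570 nt), SOBIR1 (2084 nt) and CST (1774 nt). Genes near these lengths had log2 medians of −0.999, −0.41, −0.141 and 0.06 for the first SEC library over the second, in that order. The part of length in the SEC ratios was not tested. SOBIR1 had 0.808 and 0.796 length-scaled counts for each one of HAE in REC, against 3.47 and 1.99 in SEC. CST had 0.102 and 0.0826 for each one of HAE in REC, against 0.767 and 0.202 in SEC. HAE and SERK1 stood near parity in REC, with ratios of 1.04 and 1.02, against 0.693 and 0.764 in SEC.

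In 6 lists of the pathway around the receptors and of related kinases, 46 of 51 genes could be tested. Of these, 1 was higher in REC and 5 were higher in SEC, or 13% against 2.67% of all genes tested. The lists were chosen with earlier results of these data known, so these shares are a description only. The ligand list held 6 IDA family genes and 3 genes of subtilases that process IDA, of which the last 3 had 0 counts in every library. IDA, the ligand of HAE and HSL2, was 33.8-fold higher in SEC, at 0.471 and 0.867 CPM in REC against 32.5 and 13.9 CPM in SEC (log2 fold change −5.08, edgeR adjusted p = 0.0341). Dropping SEC replicate 1 brought this to −4.34, and IDA did not pass by limma voom (adjusted p = 0.113). IDL1 had 1 count in REC and 163 in SEC, and did not pass the test (edgeR adjusted p = 0.0586). IDL2 had 4 and 4.33 CPM in REC and 14 and 4.75 CPM in SEC. Of 5 tested ligand genes, 1 passed, and the median log2 fold change was −1.17, against 0.02 over all genes.

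Among 12 genes of MAP kinases, traffic and transcription factors, 1 was higher in REC, 1 was higher in SEC and 10 did not pass. KNAT6, a homeobox gene that promotes abscission, was 4.22-fold higher in REC (log2 fold change 2.08, SE 0.25, edgeR adjusted p = 0.0329), but missed the threshold once either REC library was left out (adjusted p = 0.114 when it was replicate 1 and 0.0803 when it was replicate 2). KNAT1, a homeobox gene that restrains it, was 3.62-fold higher in SEC (log2 fold change −1.86, SE 0.16, adjusted p = 0.0267). The kinases below the receptors, MPK3 and MPK6, had 203 and 191 CPM and 121 and 130 CPM in REC, against 143 and 190 CPM and 127 and 188 CPM in SEC, and did not pass. Of 3 polygalacturonase genes, ADPG2, a downstream gene of wall breakdown, was 7.11-fold higher in SEC (log2 fold change −2.83, SE 0.22, edgeR adjusted p = 0.0267), and QRT2 and ADPG1 did not pass. ADPG1 had 1 count in REC and 34 in SEC.

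Of 5 cytoplasmic kinases related to CST, PBL1, a kinase of immune signalling, was 4.07-fold higher in SEC, at 15.8 and 19 CPM in REC against 73.8 and 68.1 CPM in SEC (log2 fold change −2.02, SE 0.24, edgeR adjusted p = 0.0324). PBL1 did not pass when REC replicate 1 (adjusted p = 0.284) or REC replicate 2 (adjusted p = 0.105) was left out. The other 4 did not pass; BIK1 had 50.4 and 53.8 CPM in REC and 82.4 and 71.8 CPM in SEC, and PBS1 had 86.2 and 105 CPM in REC and 89.2 and 74.1 CPM in SEC. None of the 4 partners and regulators of the SERKs and SOBIR1 passed by edgeR, while 1 had an unadjusted p under 0.05 and DESeq2 called 1, against 23.6% and 11.3% of all genes. The median log2 fold change was −0.98 among the 5 kinases and −0.27 among the 4 partners, against 0.02 over all genes. BIR1, a receptor kinase that binds BAK1 and restrains cell death, had 102 and 109 CPM in REC and 194 and 231 CPM in SEC (log2 fold change −1.02, SE 0.20, adjusted p = 0.0625). BIR2, which holds BAK1 away from other receptors, had 53.9 and 42.1 CPM in REC and 53.5 and 73.6 CPM in SEC.

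Of 17 other leucine-rich repeat receptor kinases that work with SERKs and could be tested, MIK2 (AT4G08850), a receptor for peptides in immunity, was 3.74-fold higher in SEC, at 31.5 and 36.5 CPM in REC against 98.7 and 156 CPM in SEC (log2 fold change −1.90, SE 0.30, edgeR adjusted p = 0.0452). Upper-quartile scaling left MIK2 just short of the threshold (adjusted p = 0.0518), and it did not pass when REC replicate 1 (adjusted p = 0.297) or REC replicate 2 (adjusted p = 0.112) was dropped. The other 16 did not pass. The most abundant of those, RLK7 and PEPR1, had 318 and 350 CPM and 308 and 337 CPM in REC, against 182 and 410 CPM and 96.6 and 353 CPM in SEC, and so were low in SEC replicate 1 as HAE and SERK1 were. In this list 8 genes had a positive and 9 a negative log2 fold change, and the median was −0.22.

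The genes whose profile over the 4 libraries lay nearest to that of HAE, by Euclidean distance of centred log2 CPM among 11580 genes of 10 CPM or more, were CCC1 (AT1G30450), emb1138 (AT5G26742), AT1G64430, AT3G24190 and AAE18 (AT1G55320), at distances from 0.0321 to 0.0779. Among the other receptor and co-receptor genes, SERK2 stood at rank 37, SERK1 at 799, HSL2 at 1157, SERK4 at 2213, HSL1 at 6427 and BAK1 at 7951. SOBIR1 and CST were far from HAE, at ranks 8915 and 10808. Of the 11580 genes, 9.99% lay as near to HAE as HSL2 or nearer. The profile of HAE includes its low value in SEC replicate 1, at a log2 ratio of −1.15 to SEC replicate 2. Genes near it in length had a median of −0.999, and how far length sets these ranks was not tested.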

How the data were processed

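RNA of 2 REC and 2 SEC libraries was measured by polyA RNA-seq after template-switching amplification (SMART-Seq v4, 18 cycles) and TruSeq v2 library preparation, per the labels' protocols; reads are not independent molecules. The deposited values are raw counts per gene locus, 1 file per sample. The submitters' processing notes name TAIR10 as the build and, among the tools, Trimmomatic 0.32.3, TopHat2 2.0.9, HTSeq 0.6.1 and DESeq2; which annotation and strand setting the counting used is not given in the sources used here. Lines that name no gene were left out: records in no gene were 46.81% to 47.74% of all records, those aligning more than once 5.64% to 7.48%, and those in overlapping genes 0.37% to 0.44%.

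Groups were taken from the sample titles. The group comparison used edgeR 4.0.16 and R 4.3.3 (quasi-likelihood F test, TMM, filterByExpr, group as the only term, Benjamini-Hochberg over all 18384 genes, threshold 0.05, two-sided). Standard errors were computed as |log2 fold change| over the square root of F. CPM per kb divides CPM by the longest RefSeq transcript of TAIR10.1, matched by locus for 32835 genes; since the files name TAIR10, no coordinates are printed. The length trend was a loess fit (span 0.5) of centred log2 CPM (prior count 2) on log2 length, used as an offset. Alternatives were DESeq2 1.42.0, limma 3.58.1 (voom), other scalings, no filter, a replicate block and leaving out each library. No files were identical, and both pairs differed by more than sampling noise (chi-square per degree of freedom 5.39 for REC and 70.8 for SEC). The fits were checked on simulated data drawn with the same spread in every library and no length trend, unlike the pairs here.

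Members and lists were chosen with earlier results of these data known. All 9 members are named, and of each list the called genes and the 2 most abundant others. IDA and QRT2 are named whatever their p. SERK5, RAP and the marker genes are additions. Of the list names, 4 are not those of the reference (MIK2 among them) and were matched by locus alone.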

Additional observations from a re-analysis of the deposited data

How the results depend on the processing

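None of the 9 genes was called by edgeR with any of the other scalings, without the filter or by limma voom. DESeq2 called 2 of the 9, 12 list genes and 2215 genes in all, among them SOBIR1 (−0.80) and CST (−1.23). With the length trend removed there were 4, 16 and 2583 calls, among them HAE (0.49), BAK1 (−0.94), SOBIR1 (−0.97) and CST (−1.31). Without the filter 1116 genes were called in all. SERK4 changed sign by limma voom (0.10) and with upper-quartile normalization (0.072), which moved the median of all genes to 0.12. Leaving out 1 library gave 114 to 10621 calls in all, 0 to 8 among the 9 genes and 3 to 28 among list genes; without a SEC library the REC pair alone sets the spread, and without a REC library the SEC pair alone. The log2 fold change then ran from 0.34 to 1.502 for HAE, −0.02 to 0.88 for HSL2, 0.56 to 1.39 for HSL1, −0.09 to 0.93 for SERK1, 0.35 to 1.68 for SERK2, −0.80 to −0.43 for BAK1, −0.53 to 0.77 for SERK4 (0.03 without REC replicate 2), −0.97 to −0.61 for SOBIR1 and −1.56 to −0.80 for CST. The libraries share only replicate numbers (correlation of same-numbered deviations 0.0384). With the replicate block, 1687 genes were called in all, with 11 list genes and 1 of the 9, CST (−1.19, adjusted p = 0.0439 by edgeR), and SERK4 was 0.11. Leaving out 1 library, the REC minus SEC difference in share ran from 3.96 to 9.78 percentage points for HAE, −8.89 to −4.5 for HSL2 and −1.66 to 1.32 for HSL1. Among the co-receptors it ran from 6.88 to 9.04 for SERK1, 1.77 to 2.45 for SERK2, −12.1 to −4.3 for BAK1 and −4.9 to 1.15 for SERK4. The shares of HSL1 and SERK4 thus have no fixed direction. Without length scaling each difference in share kept its sign. With 2 libraries a group, a missed threshold does not show that a gene was equal on both sides.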
